A study of Sus scrofa with 22 samples.

Results

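The genes described here encode enzymes of the thioredoxin and glutathione systems and related antioxidant defences: TXNRD1, TXN2, PRDX5, MSRA, GSS, GSR, MGST1 and SOD2. They were chosen by name, and every probe set annotated to exactly 1 of these symbols was taken, which gave 14 probe sets for 8 genes out of 23999 probe sets in all. All 14 passed the filter on low values (log2 intensity above 5 in at least 2 arrays), among 17240 that did. TXNRD1 and GSR had 3 probe sets each, MSRA and GSS had 2 each, and the other genes had 1.

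The study profiled peripheral blood mononuclear cells (PBMNCs), the lymphocyte and monocyte fraction of blood, from female and male mini pigs on Affymetrix porcine arrays. The groups at 9 months were a high-fat chow (20% beef tallow) plus a daily dose of resveratrol (8 mg/kg), the same high-fat chow without resveratrol, and a control chow (5% beef tallow), with 2 females and 2 males each. The remaining group was sampled at time 0, before the diets, with 5 females and 5 males. The 22 arrays came from 20 animals, since pigs 8 and 25 were measured at time 0 and again on the control chow. The study asked how the high-fat diet, and resveratrol added to it, altered gene expression in these cells, and how the sexes differed at the start.

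Cells remove peroxides through a pair of parallel systems that both draw on NADPH. In the first, thioredoxin reductase (TXNRD1 in the cytosol) keeps thioredoxins reduced, and thioredoxins (TXN2 is the mitochondrial one) pass the electrons on to peroxiredoxins such as PRDX5 and to methionine sulfoxide reductases such as MSRA, which repairs oxidised methionine. In the second, GSS completes the synthesis of glutathione, GSR regenerates it from its oxidised form, and transferases such as the membrane-bound MGST1 use it. SOD2, the mitochondrial manganese superoxide dismutase, makes hydrogen peroxide from superoxide and is a known target of NF-kB. In human blood, monocytes carry the phagocyte NADPH oxidase that makes superoxide, and express SOD2 and MGST1 well.

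The values are log2 RMA intensities, and array medians lay between 6.21 and 6.26. Defining markers of the labelled cells were present: CD14 of monocytes averaged 9.09, CD79B of B cells averaged 9.92 and the CD3 genes of T cells averaged 10.7 to 11.9, and markers of red cells and platelets were present too (ALAS2 10.8, PPBP 9.09). CSF1R, CD79A, CSF3R and PF4 had no tested probe set with a single symbol, and the granulocyte gene S100A12 averaged 4.97. Of the other granulocyte genes measured, S100A9 averaged 8.60, and S100A8, ELANE, LTF and PGLYRP1 averaged 4.96 to 6.19. Signals of the poly-A controls (transcripts spiked into the RNA ahead of labelling) divided the arrays into a high and a low set within each time. At 9 months 5 arrays had a high signal (3 of high-fat pigs, 1 of a resveratrol pig and 1 of a control pig) and 7 had a low one, and at time 0 the arrays of females 6 and 10 were high and the other 8 low. Differences were tested with limma over all 17240 probe sets, with Benjamini-Hochberg adjusted p-values and a threshold of 0.05, and are called only where they passed it.

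Thioredoxin reductase showed the largest change in the group, and it was between the times. On the control chow at 9 months Ssc_6097_1_S1_at, the brightest TXNRD1 probe set, read 9.63, 9.65, 9.72 and 9.53, against a lowest value of 8.20, a median of 8.50 and a highest value of 8.76 in the 10 arrays at time 0. Every control array at 9 months lay above every array at time 0, and so did the 8 arrays of the other diets, which read 9.38 to 9.79. The difference was 1.17 (SE 0.096), or 2.25-fold, and TXNRD1 rose at an adjusted p of 5.10e-08. Among all 17240 probe sets tested, 2617 had no overlap between the control chow at 9 months and time 0. In RNA of mixed blood cells, fewer cells of a type and less RNA per cell cannot be told apart.

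The remaining TXNRD1 probe sets gave the same direction. Ssc_6097_1_S1_a_at, which shares its design number, averaged 8.92 ± 0.10 (SD, n = 4) on the control chow at 9 months and 7.58 ± 0.22 (SD, n = 10) at time 0, without overlap. Its difference of 1.34 (SE 0.10) had an adjusted p of 2.60e-08. Ssc_22447_1_S1_at was dim, close to the filter, and read 5.93, 5.48, 5.90 and 5.92 at 9 months, against 5.17 to 5.54 at time 0. It rose by 0.51 (adjusted p = 3.72e-04), with the array of pig 8 at 9 months inside the range of time 0. In the pigs measured at both times the brightest probe set was higher at 9 months by 1.18 in pig 8 and by 0.96 in pig 25.

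The mitochondrial thioredoxin and peroxiredoxin 5 were lower at 9 months; TXNRD2, the mitochondrial reductase that serves TXN2, was not measured by a tested probe set with a single symbol. PRDX5 read 9.76, 9.33, 9.25 and 9.37 on the control chow at 9 months, and at time 0 its lowest value was 9.68, its median 9.97 and its highest 10.41. One control female at 9 months overlapped the lower end of time 0, and the other 3 arrays lay below it. PRDX5 fell by 0.56 (SE 0.11, adjusted p = 7.61e-04), to 0.68 of its level at time 0.

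TXN2 read 9.03, 8.94, 9.04 and 8.81 at 9 months on the control chow, against a lowest value of 9.03, a median of 9.28 and a highest value of 9.58 at time 0. Pig 25 gave the lowest TXN2 value at both times, and 2 of the 4 arrays at 9 months lay just inside the lower end of time 0. TXN2 fell by 0.34 (SE 0.077, adjusted p = 0.0019). Within pig 8 the difference between 9 months and time 0 was -0.31 for TXN2 and -0.64 for PRDX5, and within pig 25 it was -0.22 for TXN2 and -0.31 for PRDX5.

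**Figure D1:**
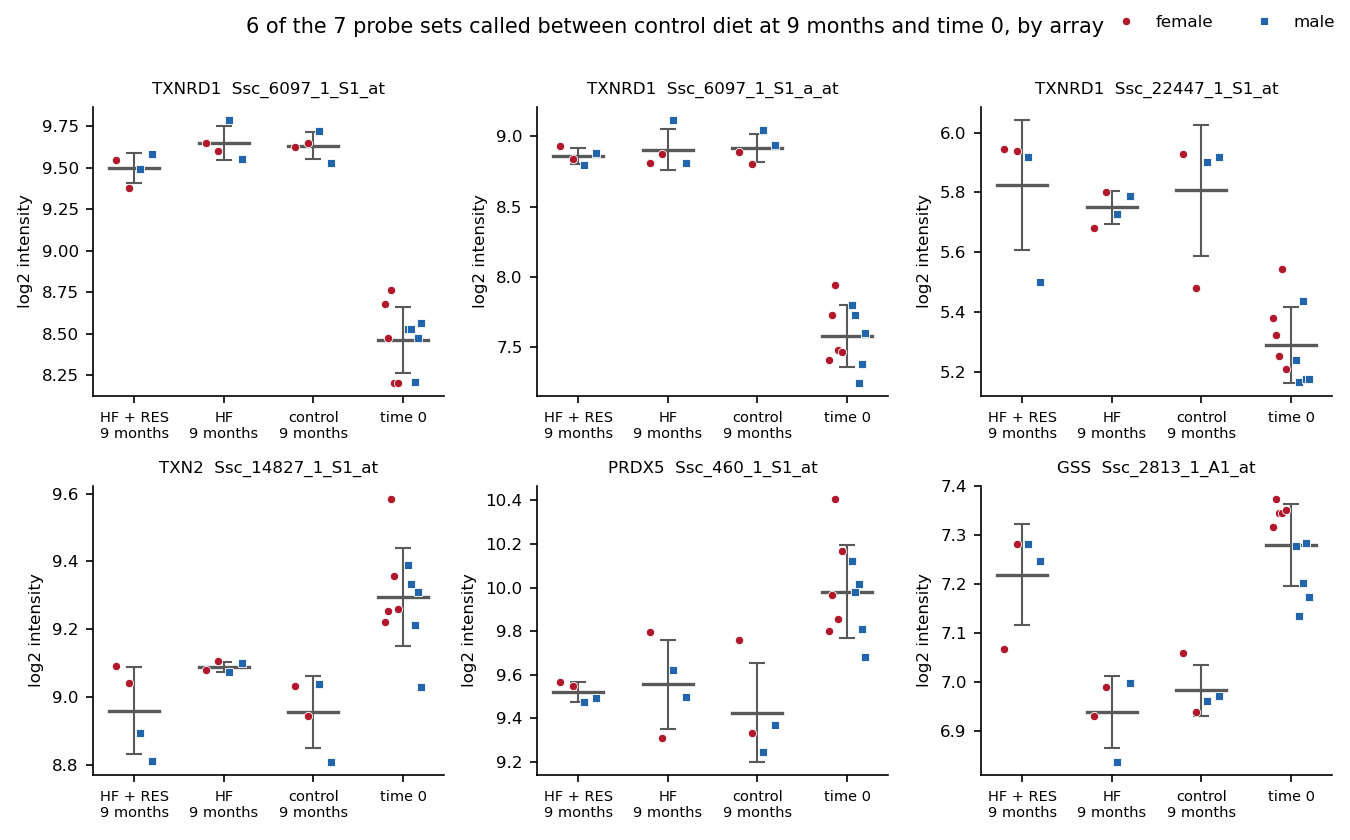
Log2 intensity of 6 probe sets in each array, by condition (left to right, high-fat chow with resveratrol, high-fat chow and control chow at 9 months, then time 0). Points are arrays, circles females and squares males, and bars show the mean ± SD. TXNRD1 (Ssc_6097_1_S1_at) read 9.38 to 9.79 in the 12 arrays at 9 months and 8.20 to 8.76 at time 0, while TXN2, PRDX5 and GSS Ssc_2813_1_A1_at were lower on the control chow than at time 0.

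MSRA, which thioredoxin keeps active, read 10.19, 9.84, 9.83 and 10.10 with its brightest probe set on the control chow at 9 months, against 9.42, 9.64 and 9.88 for the lowest, median and highest array at time 0. The groups overlapped slightly, at 9.83 and 9.84 against a highest value of 9.88. MSRA rose by 0.37 (SE 0.13, adjusted p = 0.0382), but the call was lost when any of 7 arrays was left out: control females 18 and 8, control male 25, or time 0 males 11, 12, 15 and 24. Without control female 18 the difference was 0.27 (adjusted p = 0.162). Its second probe set, Ssc_9753_2_S1_at, differed by 0.28 (adjusted p = 0.229).

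In the glutathione branch the GSS probe sets disagreed about time. Ssc_2813_1_A1_at read 7.06, 6.94, 6.96 and 6.97 on the control chow at 9 months, all below the time 0 range of 7.13 to 7.37. It fell by 0.30 (SE 0.061, adjusted p = 8.82e-04). The brighter GSS probe set, Ssc_2813_2_S1_at, read 7.15 to 7.38 on the control chow against 7.21 to 7.41 at time 0, a difference of -0.04 (95% interval -0.21 to 0.14).

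The remaining members did not pass the test of time. GSR differed by 0.15 (95% interval -0.08 to 0.38), MGST1 by 0.13 (-0.20 to 0.46) and SOD2 by -0.16 (-0.40 to 0.09) with their brightest probe sets. In all, 7 of the 14 probe sets were called between control chow at 9 months and time 0, 4 higher and 3 lower, where 35% of all probe sets tested were called. The median difference over the 14 was 0.11, against -0.01 over all probe sets tested. Time 0 preceded the diets, so time, the age of the pigs and the feeding of the control chow cannot be told apart.

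Spike-in signals were higher at 9 months than in most time 0 arrays, and the times met in a middle range of 8.39 to 9.15, which held 3 control arrays of 9 months and 2 arrays of time 0. Within it TXNRD1 differed by 0.95 with its brightest probe set, PRDX5 by -0.66, TXN2 by -0.40 and GSS Ssc_2813_1_A1_at by -0.35, while MSRA differed by 0.16. With spike-in sets cut over both times as a term, an alternative chosen after the data were seen, the brightest TXNRD1 probe set differed by 0.89 (adjusted p = 6.90e-05), and the calls of TXNRD1, PRDX5, TXN2 and this GSS probe set were kept. The MSRA call was lost, at 0.17 (adjusted p = 0.549).

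Several measures of the samples moved with time as well. The mean of 12 monocyte genes was 9.88 ± 0.14 (SD, n = 4) on the control chow at 9 months, with a range of 9.76 to 10.09. At time 0 it was 9.53 ± 0.22 (SD, n = 10), with a range of 9.24 to 9.93. Of the 12 genes 3 rose, where 14.8% of all genes tested rose and 22.5% fell. The mean of 9 T cell genes was 10.35 ± 0.08 (10.27 to 10.46) at 9 months and 10.83 ± 0.12 (10.64 to 11.00) at time 0, and 5 of the 9 fell. The 3 measured red cell genes all fell, and their mean was 8.91 ± 0.63 (8.13 to 9.64) at 9 months and 10.24 ± 0.52 (9.26 to 10.95) at time 0. The 4 NK cell genes averaged 9.64 ± 0.29 (9.34 to 10.00) at 9 months and 10.13 ± 0.18 (9.83 to 10.45) at time 0, with 2 of them lower by the test. The 2 B cell genes averaged 9.40 ± 0.22 (9.24 to 9.73) at 9 months and 9.95 ± 0.23 (9.52 to 10.35) at time 0, with 1 of them lower by the test. The 5 platelet genes averaged 8.26 ± 1.35 at 9 months and 8.62 ± 0.37 at time 0, with 0 called. The 6 granulocyte genes averaged 5.91 ± 0.10 at 9 months and 6.02 ± 0.27 at time 0, also with 0 called. The 3' signal of actin exceeded its 5' signal by 1.95 ± 0.65 at 9 months and by 1.42 ± 0.50 at time 0 on the log2 scale. The part of these measures in the changes of the antioxidant genes was not tested.

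Among 60 measured genes of a wider redox list, which left the members out, 3 rose and 16 fell with time. Of all genes tested, 14.8% rose and 22.5% fell. SQSTM1, an autophagy receptor that also binds the sensor of oxidative stress KEAP1, rose by 0.81 (SE 0.093, adjusted p = 2.60e-06), to 11.37 ± 0.11 at 9 months against 10.55 ± 0.19 at time 0. NQO2, a quinone reductase, rose by 0.64 (adjusted p = 9.66e-04), and HMOX1, the inducible haem oxygenase, was the other gene that rose (0.68, adjusted p = 0.0259), named after its values were seen.

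The constitutive haem oxygenase HMOX2 fell by 0.85 (SE 0.12, adjusted p = 2.48e-05). PARK7, a protein sensitive to peroxide, fell by 0.63 (adjusted p = 8.83e-06). The glyoxalase GLO1 fell by 0.44 and NNT, which makes NADPH in mitochondria, fell by 0.57. Cytosolic thioredoxin itself (TXN), singled out after its values were seen because it is the substrate of TXNRD1, differed by -0.04 (SE 0.083, adjusted p = 0.735).

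**Figure D2:**
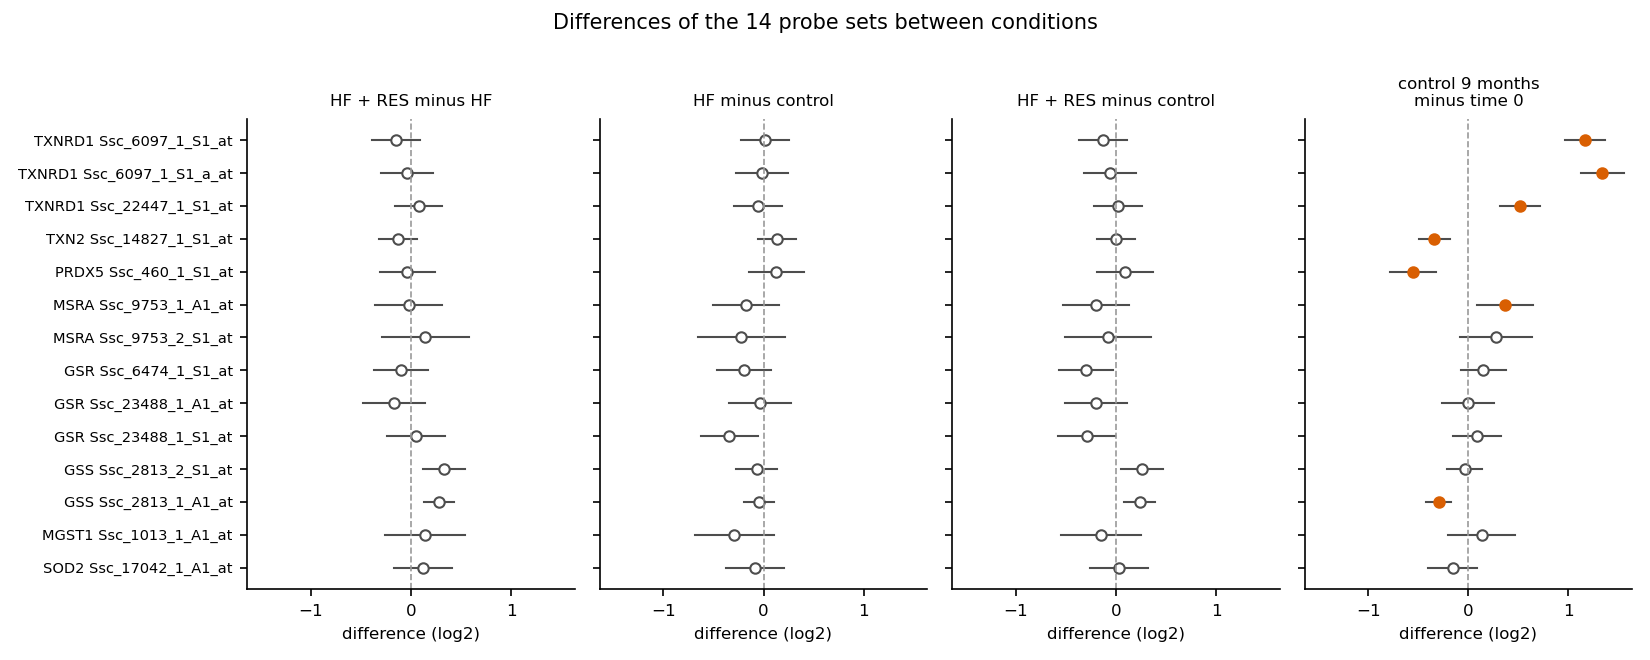
Differences in log2 intensity of the 14 probe sets (rows) in 4 comparisons (panels), with 95% intervals as horizontal lines; filled circles passed an adjusted p of 0.05 and open ones did not. No probe set passed in the 3 comparisons of diets, and 7 passed between control chow at 9 months and time 0, led by TXNRD1 at 1.34 and 1.17.

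No member was called in a comparison of diets. Between high-fat and control chow 0 of the 14 probe sets passed, as did 0% of all probe sets tested, and the smallest adjusted p of a member was 0.463. With resveratrol against the high-fat chow alone 0 of 14 passed, again with 0% of all tested, and the smallest adjusted p was 0.728. With resveratrol against control chow 0 of 14 passed, with 0% of all tested, and the smallest adjusted p was 1.00. Groups of 4 that do not overlap were not rare among all probe sets tested: 5.05% between high-fat and control chow, 3.81% between resveratrol and high-fat chow, and 1.53% between resveratrol and control chow. Among the members this was 1 of 14 in each comparison. At an unadjusted p under 0.05 the 3 comparisons held 1, 2 and 4 of the 14, where 9.06%, 6.63% and 3.85% of all probe sets lay. Each pair of these comparisons shares the arrays of 1 diet.

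GSS gave the smallest p of the members in both comparisons that involve resveratrol. Ssc_2813_1_A1_at read 7.07, 7.28, 7.28 and 7.25 on the high-fat chow with resveratrol, 6.93, 6.99, 6.84 and 7.0 on the high-fat chow alone, and 7.06, 6.94, 6.96 and 6.97 on the control chow. Each of the 4 resveratrol arrays lay above each array of the other diets at 9 months, by the least in female 21. With resveratrol the value was 0.28 above the high-fat chow alone (SE 0.073, unadjusted p = 0.0010, adjusted p = 0.728) and 0.24 above the control chow (adjusted p = 1.00), and neither passed.

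The brighter GSS probe set read 7.30, 7.71, 7.66 and 7.46 with resveratrol and 7.12, 7.31, 6.96 and 7.42 on the high-fat chow alone, so the groups overlapped. Its difference was 0.33 (SE 0.10, adjusted p = 0.728), with an interval of 0.12 to 0.54. In females it was 0.29 and in males 0.37. Within the arrays of low spike-in signal, where 3 resveratrol and 3 control pigs could be set side by side, GSS was higher with resveratrol by 0.28 and 0.33 with its probe sets, and within the high set, with 1 pig each, by 0.10 and 0.05. With resveratrol against the high-fat chow alone the brighter probe set differed by 0.65 in the low set (3 arrays against 1) and by 0.01 in the high set (1 against 3), and the dimmer one by 0.43 in the low set and 0.09 in the high set. Across the conditions the dimmer probe set averaged 7.22 with resveratrol, 6.94 on the high-fat chow, 6.98 on the control chow and 7.28 at time 0.

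Beside GSS the other member whose groups did not overlap was TXN2, between high-fat and control chow. It read 9.08, 9.11, 9.07 and 9.10 on the high-fat chow and 9.03, 8.94, 9.04 and 8.81 on the control chow. The high-fat arrays lay closely together and just above the control arrays, and the TXN2 difference of 0.13 had an adjusted p of 0.729.

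Thioredoxin reductase overlapped between all diets. The brightest TXNRD1 probe set read 9.55, 9.38, 9.49 and 9.58 with resveratrol, 9.65, 9.60, 9.79 and 9.55 on the high-fat chow alone and 9.53 to 9.72 on the control chow. The resveratrol arrays reached lowest, in female 22, and the high-fat arrays highest, in male 23. Its difference was -0.15 (95% interval -0.39 to 0.09) for resveratrol against high-fat chow and 0.02 (-0.22 to 0.26) for high-fat against control chow. PRDX5 differed by -0.04 (-0.32 to 0.24) and 0.13 (-0.15 to 0.41) in the same comparisons.

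Of the GSR probe sets, Ssc_23488_1_S1_at read 7.02, 7.12, 7.20 and 7.26 on the high-fat chow and 7.53, 7.20, 7.66 and 7.57 on the control chow. Control female 8 lay among the high-fat arrays and the other 3 controls above them. The difference was -0.34 (SE 0.14, unadjusted p = 0.0228, adjusted p = 0.463). The brightest GSR probe set differed by -0.20 (adjusted p = 0.719) and Ssc_23488_1_A1_at by -0.03 (adjusted p = 0.976). SOD2 differed by -0.09 (95% interval -0.38 to 0.20) between high-fat and control chow and by 0.12 (-0.17 to 0.41) with resveratrol against high-fat chow.

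The brightest GSR probe set was lower with resveratrol than on the control chow by the mean, at 9.38 against 9.68, a difference of -0.30 (SE 0.13, unadjusted p = 0.0339, adjusted p = 1.00). MGST1, the glutathione transferase, averaged 11.34 with resveratrol, 11.20 on the high-fat chow and 11.49 on the control chow. Its differences were 0.14 (95% interval -0.26 to 0.54) for resveratrol against high-fat chow and -0.29 (-0.69 to 0.11) for high-fat against control chow. MSRA averaged 9.79 with resveratrol, 9.82 on the high-fat chow and 9.99 on the control chow, with differences of -0.02 (-0.36 to 0.31) and -0.18 (-0.51 to 0.16). In MGST1 and MSRA each diet held both high and low arrays. These followed the sex of the pig on every chow in MGST1, and on the resveratrol and high-fat chows in MSRA.

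SOD2 read 10.22, 10.06, 10.44 and 11.01 with resveratrol, 10.03, 10.15, 10.61 and 10.45 on the high-fat chow and 10.58, 10.45, 10.33 and 10.23 on the control chow. Resveratrol male 5 was the highest of all 12 arrays, and the groups overlapped.

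The wider redox list likewise held 0 called genes of 60 in each comparison of diets. The smallest p-values between high-fat and control chow belonged to the methionine sulfoxide reductase MSRB1 (-0.42, adjusted p = 0.333), the NADPH-making enzyme PGD (-0.56, adjusted p = 0.379) and TALDO1 of the pentose phosphate pathway (-0.35, adjusted p = 0.406). With resveratrol against high-fat chow they belonged to NNT (-0.37), GPX1 (0.26) and GLRX5 (0.26), with adjusted p-values of 0.728 to 0.736, and against control chow to GLRX5 (0.27), PRDX6 (0.33) and PGD (-0.46), each with an adjusted p of 1.00. Of the superoxide-making phagocyte oxidase, 5 of 8 genes were measured and 0 were called between the diets. NCF4 averaged 9.61 ± 0.02 with resveratrol, 9.13 ± 0.19 on the high-fat chow and 9.81 ± 0.25 on the control chow (SD, n = 4 each), a difference of -0.68 for high-fat against control chow with an adjusted p of 0.258. With time RAC2 of the same oxidase fell by 0.64 (adjusted p = 0.00554). All 12 monocyte genes were lower on the high-fat than on the control chow, with a median difference of -0.52, and 0 of them passed: their mean was 9.55 ± 0.52 (9.02 to 10.02) with resveratrol, 9.39 ± 0.28 (9.11 to 9.72) on the high-fat chow and 9.88 ± 0.14 (9.76 to 10.09) on the control chow.

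The sexes differed in 3 members at 9 months, all lower in females. MGST1 read 11.01, 10.87, 10.86, 11.06, 11.36 and 11.29 in the 6 females and 11.76, 11.72, 11.46, 11.43, 11.65 and 11.67 in the 6 males, over the 3 diets in the order resveratrol, high-fat and control. No female reached the lowest male. Among all 17240 probe sets tested, 219 had no overlap between the sexes at 9 months. MGST1 differed by -0.54 (SE 0.088, adjusted p = 0.00298), at 11.08 ± 0.21 in females against 11.62 ± 0.14 in males (SD, n = 6 each). In all, 3 of the 14 probe sets were called, where 6.01% of all probe sets tested were.

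**Figure D3:**
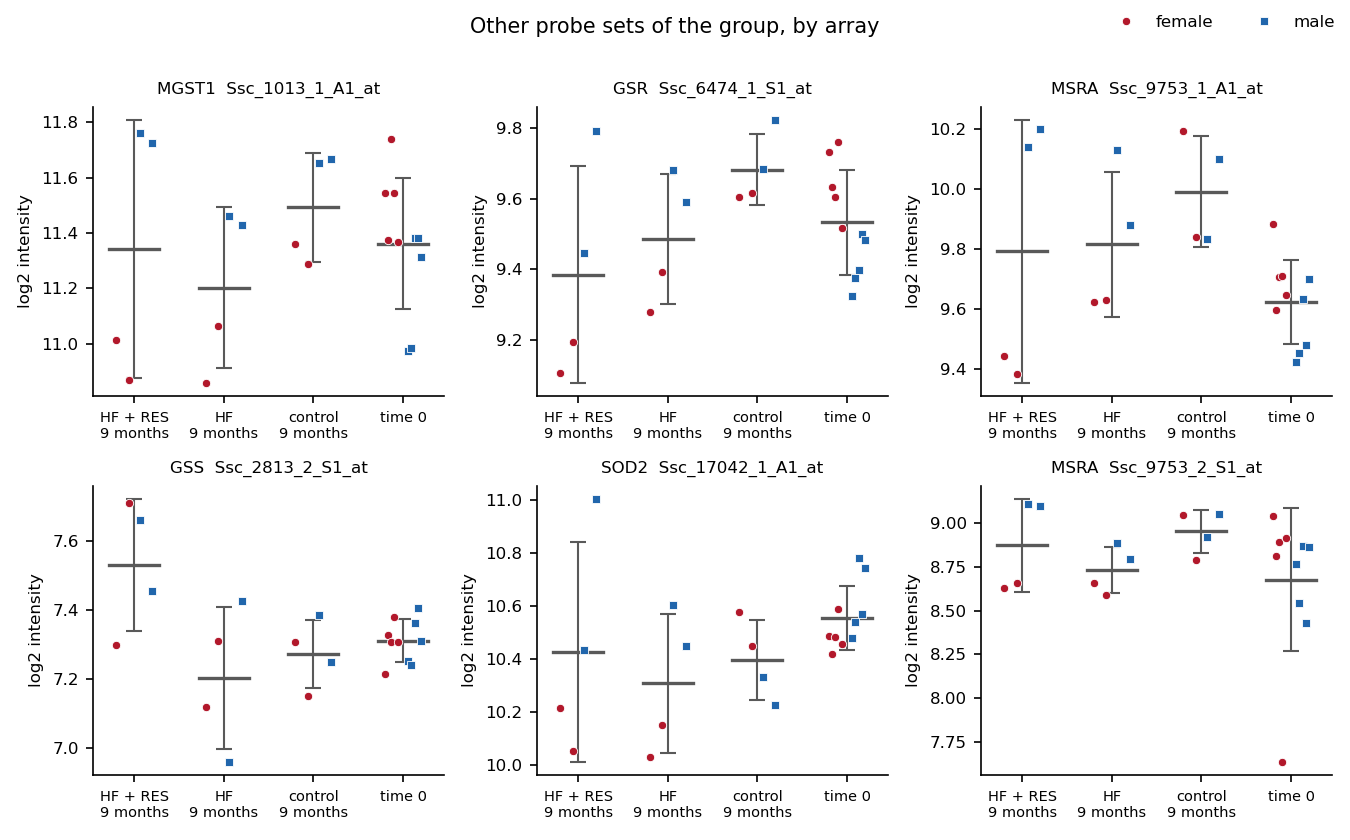
Log2 intensity of MGST1, GSR (brightest probe set), both MSRA probe sets, SOD2 and the brighter GSS probe set in each array, by condition in the same order as above, with means ± SD; circles are females and squares males. At 9 months the MGST1 values of males (11.43 to 11.76) lie above those of females (10.86 to 11.36), whereas at time 0 the mean of females is the higher one.

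MSRA read 9.44, 9.38, 9.62, 9.63, 10.19 and 9.84 in females at 9 months and 10.14, 10.20, 10.13, 9.88, 9.83 and 10.10 in males, in the same order of diets. Females on the resveratrol and high-fat chows lay below every male, and the control females within the range of males. MSRA differed by -0.36 (SE 0.080, adjusted p = 0.0152). By diet the difference of the female and male means was -0.76 with resveratrol, -0.38 on the high-fat chow and 0.05 on the control chow, with 2 pigs of each sex per diet. Its second probe set differed by -0.25 over the diets (adjusted p = 0.450).

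GSR read 9.11, 9.20, 9.28, 9.39, 9.60 and 9.61 in females and 9.45, 9.79, 9.68, 9.59, 9.68 and 9.82 in males. The control females overlapped the males and the other 4 females lay below them. GSR differed by -0.30 (SE 0.068, adjusted p = 0.0160) with this probe set, by -0.27 with Ssc_23488_1_S1_at (adjusted p = 0.162) and by 0.04 with Ssc_23488_1_A1_at (adjusted p = 0.876). By diet the difference with the brightest probe set was -0.47 with resveratrol, -0.30 on the high-fat chow and -0.14 on the control chow.

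The MGST1 call held whichever array was left out. The MSRA call was lost without control female 8 or high-fat male 23, and the GSR call without high-fat female 27, high-fat male 23 or resveratrol female 21, with differences of -0.28 to -0.32 and adjusted p-values of 0.0528 to 0.0655. SOD2 differed by -0.26 (adjusted p = 0.0793) and passed without resveratrol male 4 (-0.36, adjusted p = 0.0194). Within the high spike-in set (3 females, 2 males) the differences were -0.57 for MGST1, -0.42 for MSRA and -0.45 for GSR, and within the low set (3 females, 4 males) they were -0.48, -0.27 and -0.18. The other members at 9 months, TXNRD1, TXN2, PRDX5 and GSS, differed between the sexes by -0.07 to 0.10 with adjusted p-values from 0.522 upward.

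Cell markers moved with sex at 9 months too. The mean of the 12 monocyte genes was 9.36 ± 0.35 (9.02 to 9.83) in females and 9.86 ± 0.22 (9.50 to 10.09) in males, all 12 were lower in females and 5 passed. The 9 T cell genes averaged 10.52 ± 0.12 (10.33 to 10.64) in females and 10.27 ± 0.10 (10.13 to 10.42) in males, and 1 was called higher. The 6 granulocyte genes averaged 5.60 ± 0.27 (5.20 to 5.89) in females and 6.14 ± 0.29 (5.76 to 6.42) in males, with 2 called lower. The 3 red cell genes averaged 8.52 ± 0.33 (8.13 to 9.11) in females and 9.80 ± 0.60 (8.77 to 10.60) in males, with 2 called lower. The 2 B cell genes averaged 9.51 ± 0.18 in females and 9.13 ± 0.30 in males, with 1 called higher (0.97) and the other at -0.20. The 5 platelet genes averaged 8.37 ± 1.11 in females and 8.99 ± 0.49 in males, with 0 called. The 4 NK cell genes averaged 9.95 ± 0.26 and 9.80 ± 0.32, also with 0 called. Of all genes tested, 4.00% were called lower and 3.93% higher in females. The part of these cell markers in the difference of MGST1, MSRA and GSR between the sexes was not tested.

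**Figure D4:**
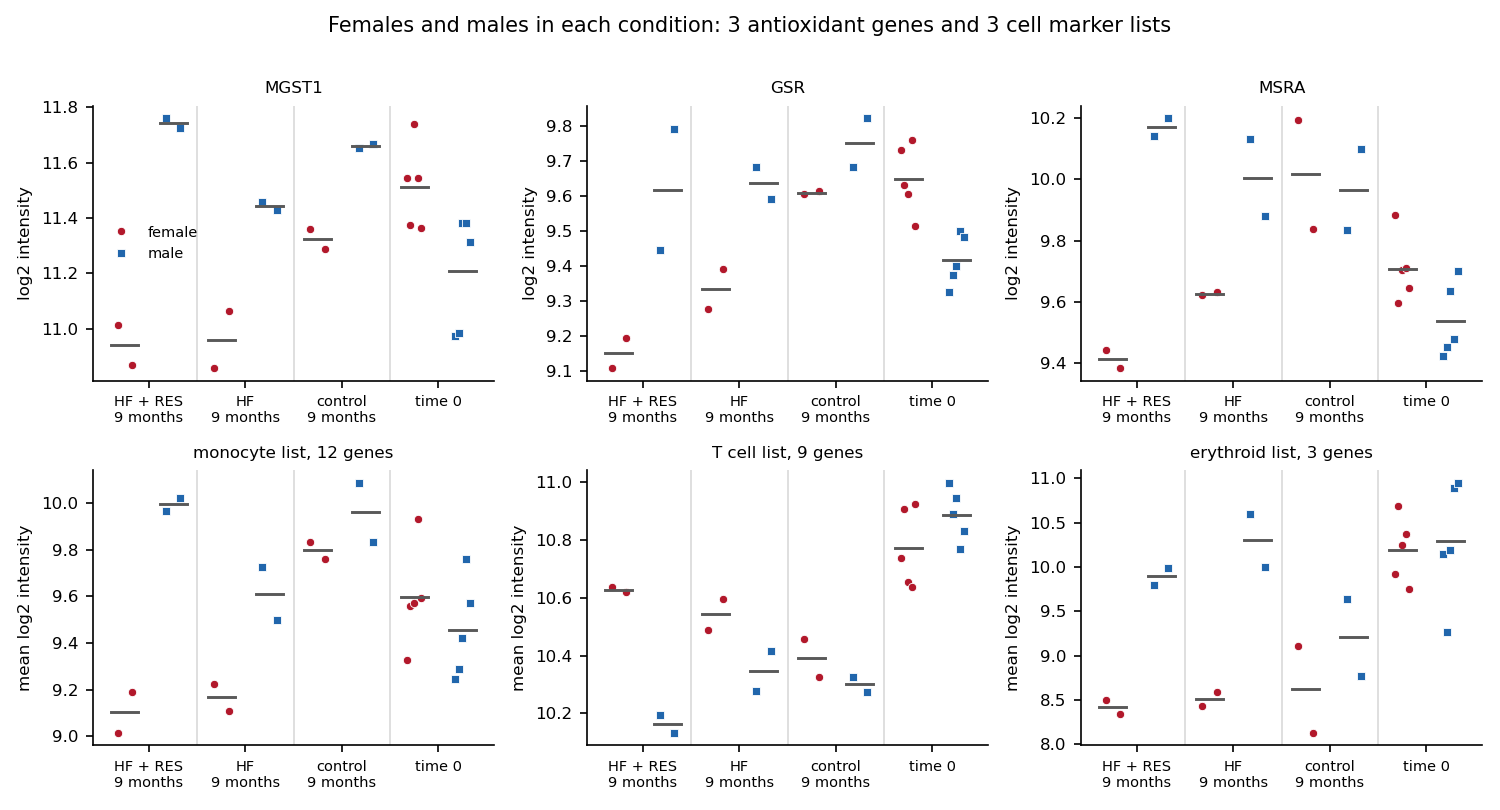
Log2 intensity of MGST1, GSR and MSRA (top row, brightest probe sets) and the mean log2 intensity of 12 monocyte, 9 T cell and 3 red cell genes (bottom row) in each array. Females (circles) stand left of males (squares) within each condition, and lines are group means. On the high-fat chow with resveratrol MGST1 was 10.94 in females and 11.74 in males, and the monocyte mean was 9.10 in females and 9.99 in males.

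Of the 60 genes of the wider redox list, 10 were lower and 1 was higher in females at 9 months, against 4.00% lower and 3.93% higher among all genes tested. The glutaredoxin GLRX differed by -0.50 (SE 0.11, adjusted p = 0.0124), at 9.88 ± 0.36 in females against 10.39 ± 0.23 in males. TXNIP, which binds and inhibits thioredoxin, differed by -0.61 (adjusted p = 0.0160), catalase (CAT) by -0.32 and the peroxiredoxin PRDX2 by -0.30. TALDO1 and TKT, which belong to the pentose phosphate pathway, differed by -0.35 and -0.28.

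At time 0 the sexes did not separate in the members by the test: 0 of 14 passed, where 1.07% of all probe sets tested did. MGST1 averaged 11.51 ± 0.15 in females and 11.21 ± 0.21 in males (SD, n = 5 each), a difference of 0.31 (adjusted p = 0.119). GSR with its brightest probe set read 9.52 to 9.76 in females and 9.32 to 9.50 in males, without overlap, a difference of 0.23 (adjusted p = 0.129). GSS Ssc_2813_1_A1_at did not overlap either, at 7.35 ± 0.02 in females and 7.21 ± 0.07 in males, a difference of 0.13 (adjusted p = 0.292). These were 2 of 14 probe sets without overlap, where 3.25% of all probe sets tested had none. MSRA differed by 0.17 (adjusted p = 0.349). In the wider list 2 of 60 genes were called, both higher in females: the biliverdin reductase BLVRA by 0.59 (adjusted p = 0.0428) and the aldehyde reductase AKR1A1 by 0.34 (adjusted p = 0.0456).

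With their brightest probe sets MGST1, GSR and MSRA had sex differences of opposite sign at time 0 and at 9 months (the second MSRA probe set differed by -0.04 at time 0 and -0.25 at 9 months), and this was tested as a contrast chosen after the data were seen. The sex difference at 9 months less that at time 0 was -0.85 for MGST1 (SE 0.13, adjusted p = 0.00270) and, with the brightest probe sets, -0.54 for GSR (SE 0.10, adjusted p = 0.00679) and -0.53 for MSRA (SE 0.12, adjusted p = 0.0142). These were 3 of 14 probe sets, where 7.34% of all tested passed. The sex difference at 9 months is a mean over the 3 diets, while time 0 preceded the diets. Between time 0 and the control chow at 9 months the difference in MGST1 was 0.45 in males and -0.19 in females, and in GSR it was 0.34 in males and -0.04 in females. In MSRA it was 0.43 in males and 0.31 in females. On the control chow alone the MSRA sex difference was 0.05, of the same sign as at time 0 (0.17), whereas it was -0.34 for MGST1 and -0.14 for GSR. The other probe sets of GSR and MSRA did not pass: GSR Ssc_23488_1_S1_at gave -0.29 (adjusted p = 0.306), GSR Ssc_23488_1_A1_at gave 0.10 (adjusted p = 0.774) and MSRA Ssc_9753_2_S1_at gave -0.21 (adjusted p = 0.682). The contrast passed for MGST1 and for the brightest GSR probe set in each of 31 alternatives of fit, scaling, filter or array left out, and for the brightest MSRA probe set it missed the threshold with the spike-in set as a term (-0.48, adjusted p = 0.0554). The mean of the monocyte list changed in the same sense, at 9.60 ± 0.22 in females and 9.46 ± 0.21 in males at time 0. All 12 monocyte genes had a negative value in this contrast (median -0.45), and 5 of them passed. Of the 9 T cell genes 3 were called higher and 0 lower. The part of these cell markers was not tested. In the wider redox list 13 of 60 genes were called lower in this contrast and 0 higher, against 5.25% and 4.10% of all genes tested. Among the 13 were BLVRA (-1.06), TXNIP (-1.03) and PGD (-0.81).

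**Figure D5:**
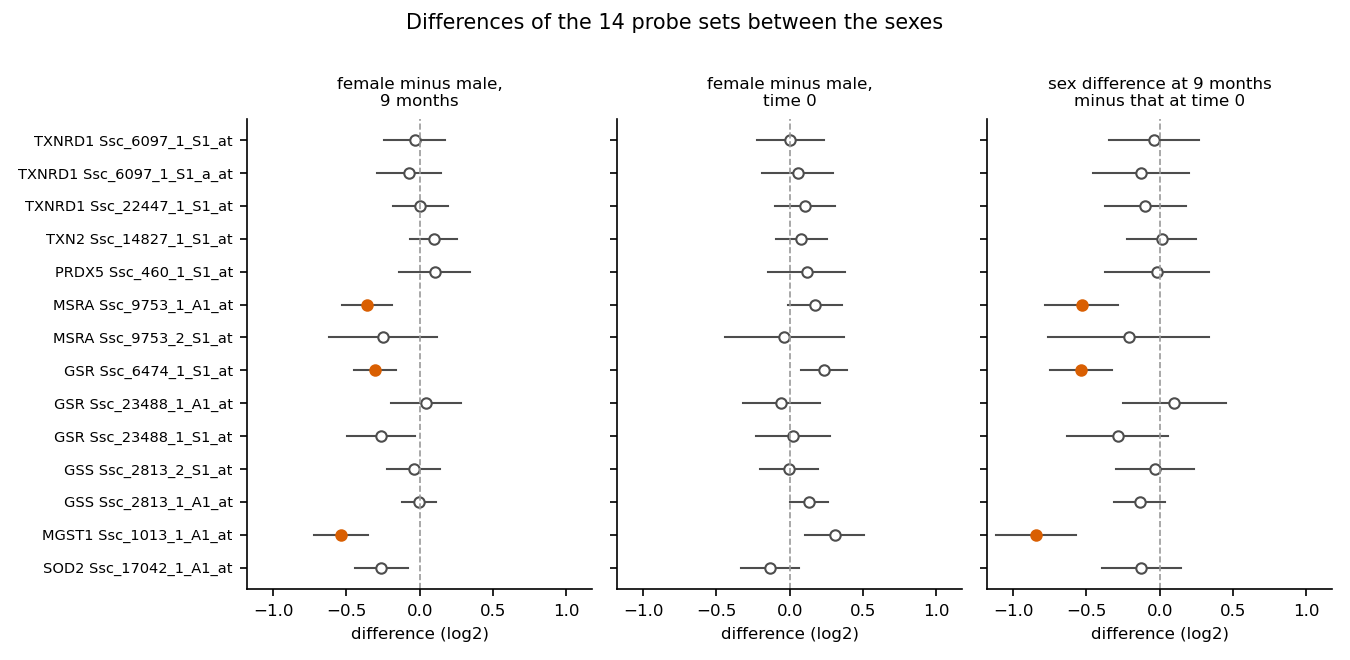
Female minus male differences in log2 intensity of the 14 probe sets at 9 months and at time 0, and the difference between these differences (right), with 95% intervals; filled circles passed an adjusted p of 0.05. MGST1, MSRA and GSR passed at 9 months (-0.54, -0.36 and -0.30), none passed at time 0, and the same 3 probe sets passed on the right (-0.85, -0.53 and -0.54).

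The sexes were not shown to respond differently to the high-fat diet or to resveratrol added to it. Their response to resveratrol against control chow was not tested. By the means, females less males differed in SOD2 by -0.58 with resveratrol, -0.44 on the high-fat chow and 0.23 on the control chow. For the high-fat effect 0 of 14 probe sets had a called sex difference, where 0.0058% of all tested had one, and for the resveratrol effect 0 of 14, where 0.0116% had one. SOD2 gave the smallest p for the high-fat diet: it averaged 10.09 on high-fat against 10.51 on control chow in females, and 10.53 against 10.28 in males. The difference of these differences was -0.67 (SE 0.21, unadjusted p = 0.0055, adjusted p = 0.397). Among 7 measured NF-kB response genes, listed because SOD2 is a target of that factor, 0 were called for either diet effect or its sex difference, and NFKBIA alone rose with time (0.50, adjusted p = 0.00105).

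Over all 22 arrays TXNRD1 varied more than most probe sets. Its bright probe sets had an SD of 0.60 and 0.69, above 95.6% and 97.4% of those tested, and 94.4% and 95.1% of that variance lay between the 8 groups of condition and sex, against a median of 58.2% over all probe sets. GSS varied least, with SDs of 0.16 and 0.17. The share between groups was 82.0% for MGST1, 83.4% for MSRA, 81.7% for GSR, 73.8% for SOD2, 74.0% for TXN2, 70.1% for PRDX5 and 46.8% for GSS with their brightest probe sets. The dimmer GSS probe set, Ssc_2813_1_A1_at, had 89.3%. Of the other dimmer probe sets, that of TXNRD1 had 82.7%, those of GSR 38.8% and 52.7%, and that of MSRA 25.8%.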

How the data were processed

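PBMNC RNA of 22 blood samples was hybridised to 1 Affymetrix array each. Per the submitters' processing notes, the tools were GCOS, Affymetrix Expression Console 1.1 and RMA. The authors deposited RMA intensity values on a linear scale, from which log2 was taken here after a floor of 1; 124 control probe sets were set aside. Symbols came from the platform annotation, updated through Entrez IDs with RefSeq's gene table for the pig (Sscrofa11.1), used for names alone: of 23999 probe sets 10069 had 1 symbol, 198 several and 13732 none, 108 IDs were not matched and 0 symbols changed. Points in probe set names are written as _.

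Groups came from the labels. limma 3.58.1 in R 4.3.3 (statmod 1.5.0) was fitted to all 22 arrays: conditions with sex as an additive term for diets and time, and 8 group means for the sexes. RMA shares information between arrays, which can reduce the spread of dim probe sets. The number of arrays limits the precision. The code was tested on simulated data. Pig numbers 8 and 25 occur at both times, and arrays of the same number are taken as 1 animal from the labels; the consensus correlation within pigs was -0.18 in the additive fit and -0.02 with group means.

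Every member probe set is described; of the wider lists, at most 6 genes past the threshold, or else the 3 of smallest p, are named, 1 probe set (the brightest) per gene. Members and lists were chosen with earlier results of these data known. Spike-in sets were cut at the largest gap of the poly-A signal within each time; that they are labelling runs is an inference. Alternatives were other designs, filters, scalings, array weights, the replicate block, the spike-in set and each array left out.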

Additional observations from a re-analysis of the deposited data

Results flagged for a closer look

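Single arrays stood far from the rest of their group in 10 of 84 groups of member values examined, while chance alone flags about 1 in 20 separate groups. The 84 were not separate, since time 0 was examined as a whole and by sex. The values of female 6 (GSR) and female 17 (MSRA) were each flagged in both, so no excess over chance can be read from the count. TXNRD1 Ssc_22447_1_S1_at read 5.50 in resveratrol male 5, with the other resveratrol arrays at 5.92 to 5.94. In control female 8 at 9 months it read 5.48, with the other controls at 5.90 to 5.93. In male 15 at time 0 it read 5.44, with the other males at 5.17 to 5.24. The same male had the lowest TXNRD1 Ssc_6097_1_S1_at value of the time 0 males, 8.21, with the others at 8.48 to 8.56, and a high GSR Ssc_23488_1_S1_at value, 7.61, with the others at 7.31 to 7.37.

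GSR Ssc_23488_1_A1_at read 5.53 in female 6 at time 0, below the other time 0 arrays (5.88 to 6.21) and below the other females (6.02 to 6.20). MSRA Ssc_9753_2_S1_at read 7.63 in female 17 at time 0, below the other time 0 arrays (8.43 to 9.04) and the other females (8.81 to 9.04). GSS Ssc_2813_1_A1_at read 7.07 in resveratrol female 21, with the other resveratrol arrays at 7.25 to 7.28.

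The female minus male difference changed between the times, by a contrast chosen after the data were seen, in MGST1 (-0.85, SE 0.13, adjusted p = 0.00270), GSR Ssc_6474_1_S1_at (-0.54, adjusted p = 0.00679) and MSRA Ssc_9753_1_A1_at (-0.53, adjusted p = 0.0142). The other GSR and MSRA probe sets did not pass. With the spike-in set as a term MSRA Ssc_9753_1_A1_at missed the threshold (adjusted p = 0.0554).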

How the results depend on the processing

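The time calls of TXNRD1, TXN2, PRDX5 and GSS Ssc_2813_1_A1_at and the sex call of MGST1 at 9 months held under each alternative and each array left out. The exception was TXNRD1 Ssc_22447_1_S1_at under the stricter filter (log2 intensity above 6), which it did not pass, so it was not tested there. MSRA, GSR and SOD2 depended on single arrays as given above. No member was called for diet under any setting. For the sexes at 9 months GSR reversed to 0.044 with probe set Ssc_23488_1_A1_at, and in the contrast between the times to 0.10. With only the arrays of the comparison, 1 member was called for sex at 9 months (MSRA at an adjusted p of 0.0513 and GSR at 0.0601), and without each array in turn 1 (high-fat male 23) to 4 (resveratrol male 4). Counts over all probe sets moved more. High-fat against control chow gave 18 calls with 8 group means, 68 with array weights, 1 with only the arrays of the comparison, and 0 to 18 with an array left out (most without control female 8). Resveratrol against high-fat and against control chow gave 1 each with 8 group means, and resveratrol against control chow gave 1 with only its own arrays. The sexes at time 0 (184) gave 43 with only those arrays, 25 with the spike-in set as a term, 28 without the arrays of high spike-in signal, an alternative chosen after seeing the data, and 38 (without male 11) to 395 (without female 20) with an array left out. The sexes at 9 months (1036) gave 319 (without high-fat male 23) to 1441 (without control male 16). The contrast between times (1265) gave 597 with the spike-in set as a term, 816 without the high time 0 arrays and 692 to 1714 with an array left out. The sex difference in the high-fat effect (1) gave up to 154 (without control male 25), and in the resveratrol effect (2) gave 1 with its own arrays, 1 with the spike-in set and 1 to 54 (without high-fat male 26). With the pig number as a replicate block 5828 probe sets were called for time, 7 of them members, and no call of a member changed. The cause of these moves was not tested. For time, the sets cut within each time could not be fitted as a term, since they were defined by time. Spike-in terms over both times, chosen after seeing the data, left 4893 calls (the signal as a covariate) and 4277 (sets cut over both times), 6 of them members in each, all but MSRA. Dim probe sets (TXNRD1 Ssc_22447_1_S1_at, GSR Ssc_23488_1_A1_at) lie near the filter.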

Other observations

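Probe sets of the same gene varied together to unequal degrees. After the 8 group means were removed, the GSS probe sets correlated at r = 0.81 over 22 arrays and the TXNRD1 probe sets from 1 sequence record at 0.65, but the dim TXNRD1 probe set correlated with the brightest at -0.37. The MSRA probe sets correlated at 0.28, and the brightest GSR probe set at -0.42 and -0.27 with the other GSR probe sets. The arrays share their scaling, so these values are descriptions.

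Among 5898 other genes, the 3 whose values over the 22 arrays were most like each member, again without the group means, were these. For TXNRD1 they were TCF19 (r = 0.87), RHOV (0.84) and ELAVL1 (0.83), and for TXN2 they were MPDU1 (0.81), PHKG1 (0.81) and PCSK1N (0.80). PRDX5 was closest to LSM12 (0.86), SSU72 (0.82) and SERTAD3 (0.82), and MSRA to RAP1B (0.81), EFL1 (0.80) and SEC31B (0.79). GSS was closest to ADAM17 (0.85), WRAP73 (0.80) and CREB3L2 (0.78), and GSR to CAPRIN1 (0.88), LOC100511376 (0.83) and TMEM41B (0.82). MGST1 was closest to MAPK14 (0.83), ZFYVE16 (0.76) and CPQ (0.75), and SOD2 to BCL2L1 (0.70), CRLS1 (0.69) and PON2 (0.67). For each member these were picked as the highest of 5898 values, so their size is no test of a link. With the group means kept, r of these pairs ran from -0.52 (TXNRD1 with TCF19) to 0.94 (TXNRD1 with ELAVL1).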
